A study of Mus musculus with 24 samples.

Results

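The genes described here encode the proteins of the cytosolic ribosome. They are the rows whose GENCODE M21 symbol is Rpl or Rps with a number and at most a short letter suffix, together with Rpsa and the stalk genes Rplp0, Rplp1 and Rplp2. Pseudogenes with -ps in the symbol, the Rps6k kinases and Rps27l were left out by the same rule. It found 84 of the 48795 gene identifiers in each of the 2 deposited tables. Members were tested where 4 or more of a table's 12 libraries reached a normalised count of 10, and the same 81 members passed in both tables, 49 of the large and 32 of the small subunit. The other 3 members, Rpl3l, Rpl10l and Rpl39l, are paralogs best known from muscle and testis, and their values stayed at or near 0.

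Lungs came from female Balb/c mice, 8 weeks old, collected 7 days after treatment. The sham group was sham-irradiated and given an IgG control antibody, the irradiated group received 13 Gy to the lungs with the same control antibody, and the depleted group received 13 Gy with daily anti-Ly6G, an antibody that removes neutrophils. Sorting took cells without CD45, CD31 or Ter119 and divided them by EpCAM, present on the epithelial fraction and lacking on the mesenchymal one; the protocol text lists CD45 in the place of CD31. RNA was freed of ribosomal RNA and sequenced from 4 mice in each of the 6 groups, 24 libraries in all. The design names 4 mice for each treatment, so both fractions may come from the same mice, which the labels do not state. The anti-Ly6G antibody was given only with irradiation, so its action in sham-irradiated mice was not analysed here.

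A ribosome joins a small subunit, which reads the messenger RNA, to a large subunit, which forms the peptide bond. Each subunit is assembled in the nucleolus from ribosomal RNA and a fixed set of proteins made in near-equal numbers. The messengers of these proteins begin with a C followed by a run of pyrimidines, the 5′ terminal oligopyrimidine (TOP) tract, through which growth signals acting by mTORC1 set their translation and stability. The mouse genome also holds a large number of processed pseudogenes of these genes, some nearly identical to the parent messenger, which matters when short reads are assigned to rows.

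The sequences near the start of members that carry the results below are shown to let their pyrimidine runs be compared. Each is 30 bases centred on the run, 5′ to 3′, from RefSeq on GRCm38.p6, with the run in capitals. The run began between 7 bases before and 34 bases after the annotated transcription start, apart from Rpl35a, which has 3 annotated starts, so that some windows do not hold the start itself. The first set holds members with the called falls in depleted epithelium and Rps12, which lay beside them.
Rpl26 (chr11:68901580-68901609, plus strand): cgtgtagttCTCTTTCCTTTTgcggccatc
Rpl35a (chr16:33056469-33056498, plus strand): ggggcttgCCTTCCTCTTTCCgccatcttg
Rps7 (chr12:28635910-28635939, minus strand): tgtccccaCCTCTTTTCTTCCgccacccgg
Rps12 (chr10:23787181-23787210, minus strand): caccgccggCCTTTTCCCCTgccgccgccg
The second set holds members called higher in irradiated epithelium or in depleted mesenchyme.
Rpl19 (chr11:98026944-98026973, plus strand): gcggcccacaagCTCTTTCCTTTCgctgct
Rpl13a (chr7:45128722-45128751, minus strand): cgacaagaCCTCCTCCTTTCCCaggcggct
Rpl36al (chr12:69184019-69184048, minus strand): ctctgttcgtCCCTTTCCTgttcggcgcgt
Rpl6 (chr5:121204521-121204550, plus strand): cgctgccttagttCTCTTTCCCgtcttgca
Rpl15 (chr14:18270967-18270996, minus strand): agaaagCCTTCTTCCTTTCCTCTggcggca
Rpl35 (chr2:39005115-39005144, minus strand): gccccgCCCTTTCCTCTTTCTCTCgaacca
Rps26 (chr10:128626484-128626513, minus strand): agccgccggatCCTCTTTCgagtcttggct
Rpl11 (chr4:136053357-136053386, minus strand): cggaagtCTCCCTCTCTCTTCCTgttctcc
Only members with a run are printed. A C-led run of at least 8 C or T bases on the gene's own strand lay within 50 bases of the annotated start in 51 of the 62 members with a promoter entry, or 82.3%, against 8521 of 27025 genes, or 31.5%. Within 10 bases of the start the shares were 20 of 62 (32.3%) and 2281 of 27025 (8.44%). No such run was found in the window of Rplp0, and 22 members had no entry. A match describes the letters in this window and is not a measured start of transcription.

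The libraries held 8159062 to 13373329 reads in epithelium and 7366672 to 11408083 in mesenchyme, recovered from the deposited values, and a count of 3 reads, the limit that a count of 0 allows, corresponded to a normalised count of 2.36 to 3.81 and 2.48 to 3.66. The sorted fractions matched their names. The summed normalised counts of the pan-epithelial markers were 13825 to 16584 in epithelial libraries and 128 to 443 in mesenchymal ones, and those of the mesenchymal markers were 134533 to 230385 in mesenchymal libraries. In epithelium the mesenchymal markers summed to 6407 to 7056 (sham), 7886 to 8723 (irradiated) and 9218 to 10819 (depleted), with 3 of 8 called higher in irradiated and 5 of 8 in depleted against sham epithelium (median log2 changes 0.35 and 0.58). In mesenchyme 3 of 7 pan-epithelial markers were called higher in depleted against sham libraries, with a median of 1.00. The part of these markers' cells in the results below was not tested. Markers of leukocytes and neutrophils, which the sort was meant to exclude, also moved with treatment. In epithelium the summed neutrophil markers ranged from 12.5 to 50.9 (sham), 121 to 448 (irradiated) and 122 to 400 (depleted), and 4 of 6 were called higher after irradiation with a median log2 change of 2.45. Of the 8 leukocyte markers there, 4 were called higher, with a median of 1.49, and their sums were 2867 to 3173, 3014 to 3870 and 2285 to 3164 in the same order of groups. Of 7 endothelial markers 4 were called higher, on sums of 685 to 994 in sham and 1189 to 2189 in irradiated libraries. In mesenchyme the leukocyte markers summed to 368 to 1048, 1065 to 2363 and 817 to 1800 in the same order. No marker list had a gene at 0 in every library. Because each library is a bulk sample, fewer cells of a type and less RNA per cell cannot be told apart.

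The order of the ribosomal protein genes by level was nearly the same in both fractions. On a scale of normalised count per kb of exon, the highest levels in epithelium were those of Rps15 (3791), Rplp1 (3260), Rpl23a (3231) and Rpl19 (2621). In mesenchyme Rplp1 (3309), Rps15 (2838), Rpl23a (2471) and Rps29 (1938) led on the same scale. Rps15 and Rps29 are small subunit proteins, Rplp1 belongs to the flexible stalk that recruits translation factors, and Rpl23a lies near the exit of the peptide tunnel. The lowest member that passed was Rpl6l, annotated as a pseudogene, at 25.9 and 24.7 per kb. The median member stood at 709 per kb in epithelium and 512 in mesenchyme. Exon length joins the exons of all annotated transcripts, from 499 bases for Rplp1 to 6270 for Rps15a, so the order also follows annotation. Reads on near-identical copies, defined below, are left out of these levels. Rps2 thus stood at 37.2 per kb in epithelium, while its copy Rps2-ps10 had a mean normalised count of 2630. Spearman's rho of the level per kb between the fractions was 0.979 across the 81 members, which are not independent and share exon lengths.

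Most members varied little between mice. The median coefficient of variation of a member within a group of 4 libraries ran from 5.98% in depleted epithelium to 8.81% in sham mesenchyme. The widest spreads belonged to Rps27rt, a retrogene copy of Rps27, at 71.6% in sham epithelium, and to Rps12 at 70.4% in sham mesenchyme. Rps27rt was at 69.3, 89.1, 0 and 55.2 in the 4 sham epithelial libraries, so its fitted changes against sham epithelium include 1 library at 0, and no change of this gene was called.

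The share of all reads that fell on the 84 members gave a first view of the groups. In epithelium the sham libraries lay at 1.02 to 1.19%, the irradiated ones at 1.10 to 1.35% and the depleted ones at 1.19 to 1.25%, with means of 1.10, 1.25 and 1.22%. In mesenchyme it was 0.876 to 0.995%, 0.920 to 1.01% and 1.05 to 1.13%, with means of 0.934, 0.970 and 1.09%. The mesenchymal depleted libraries did not overlap either other mesenchymal group, while the epithelial sham and irradiated libraries overlapped.

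**Figure D1:**
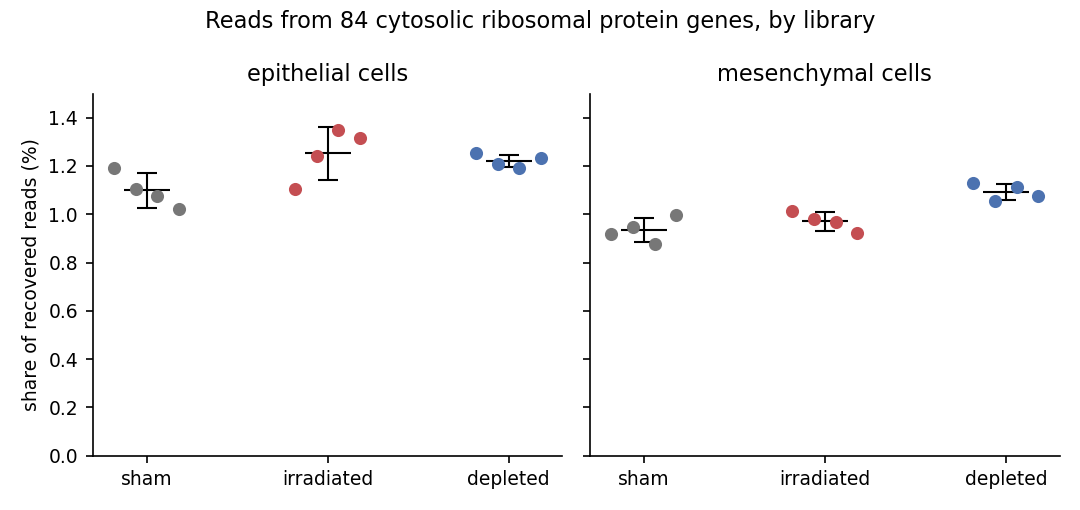
Share of recovered reads (%) on the 84 cytosolic ribosomal protein genes, by library; points are libraries of 1 mouse, bars are the mean and SD of 4. In epithelium the irradiated mean of 1.25% stood above the sham mean of 1.10% with overlapping libraries, and in mesenchyme all 4 depleted libraries (1.05 to 1.13%) lay above the other 8.

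In irradiated epithelium most members stood slightly above sham and 7 were called higher. Changes were tested with limma on log2(normalised count + 1), with Benjamini-Hochberg adjustment over all 16626 genes tested and a call at an adjusted p under 0.05, and p-values measure the spread between these mice. Between irradiated and sham epithelium 80 of 81 members had a log2 change above 0, with a median of 0.18 (-0.01 when each library was centred on the members), against a median of -0.01 over all genes tested. At an unadjusted p under 0.05, 50 members were higher and 0 lower, against 1396 and 989 of the 16626 genes. After adjustment 7 were called higher and 0 lower, while 2.26% of all genes tested were called higher and 0.878% lower, 3.14% in all. The groups did not overlap for 6 members, all higher, against 4.94% of all genes higher and 3.89% lower without overlap. The medians of the large and small subunit members were 0.17 and 0.21.

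The 7 members called higher in irradiated epithelium came from both subunits. Rplp0, the base of the ribosomal stalk, had normalised counts of 2014, 1767, 1711 and 1656 in sham and 1988, 2216, 2313 and 2260 in irradiated libraries, a log2 change of 0.30 ± 0.0626 (SE, adjusted p = 0.0124). Its first irradiated library lay inside the sham range, so the groups overlapped. Rpl36al, a paralog of Rpl36a that encodes a tRNA-contacting large subunit protein, was at 774, 738, 755 and 751 in sham and 830, 920, 1000 and 982 in irradiated libraries, with no overlap and a log2 change of 0.30 (adjusted p = 0.0223). Rpl36a itself had a log2 change of 0.06 (adjusted p = 0.847). Its row held 60.7% of the sum with its copies in sham and 54.6% in irradiated epithelium, and that sum was not called either. Rpl24, which bridges the subunits, rose from 1087 ± 88.0 to 1297 ± 57.1 (SD, n = 4; limma adjusted p = 0.0252) and Rps27a, made as a fusion to ubiquitin, rose from 1471 ± 64.0 to 1746 ± 108 (adjusted p = 0.0295), both without overlap. Rps19, a small subunit gene mutated in Diamond-Blackfan anaemia, had the largest change of the 7, from 2522 to 3204, a log2 change of 0.34 (adjusted p = 0.0366). Rpl19 and Rpl13a, both of the large subunit, changed by 0.27 (adjusted p = 0.0255) and 0.28 (adjusted p = 0.0499). Rpl19, Rps19 and Rpl13a each had irradiated libraries inside the sham range. Just outside the call lay Rps6, a substrate of the S6 kinases, with 0.25 and an adjusted p of 0.0552. When reads on near-identical copies, defined below, were added to the parent rows, 8 members were called, all higher. Of these, 6 were among the 7, while Rpl24 was no longer called and Rpl10 and Rps16 entered.

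The change was not equal across mice, and the calls rested on single libraries. Relative to the mean of the sham libraries, the median member stood at 0.03, 0.18, 0.29 and 0.24 (log2) in the 4 irradiated epithelial libraries, and at 0.14, -0.02, -0.03 and -0.08 in the 4 sham ones. The first irradiated library was thus below the first sham library. Without irradiated replicate 1 the count of called members went from 7 to 26, and without sham replicate 1 to 17, while without sham replicate 3, sham replicate 4 or irradiated replicate 2 it was 0. It was 2 without sham replicate 2 and 1 without irradiated replicate 3 or 4. With the mean log2 level of the leukocyte markers in the fit, it was 0 as well. That level averaged 5.12 in sham, 6.48 in irradiated and 6.20 in depleted libraries. As it moved with treatment, this fit cannot separate leukocyte content from treatment. Whether admixed cells had a part in the change was not tested.

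**Figure D2:**
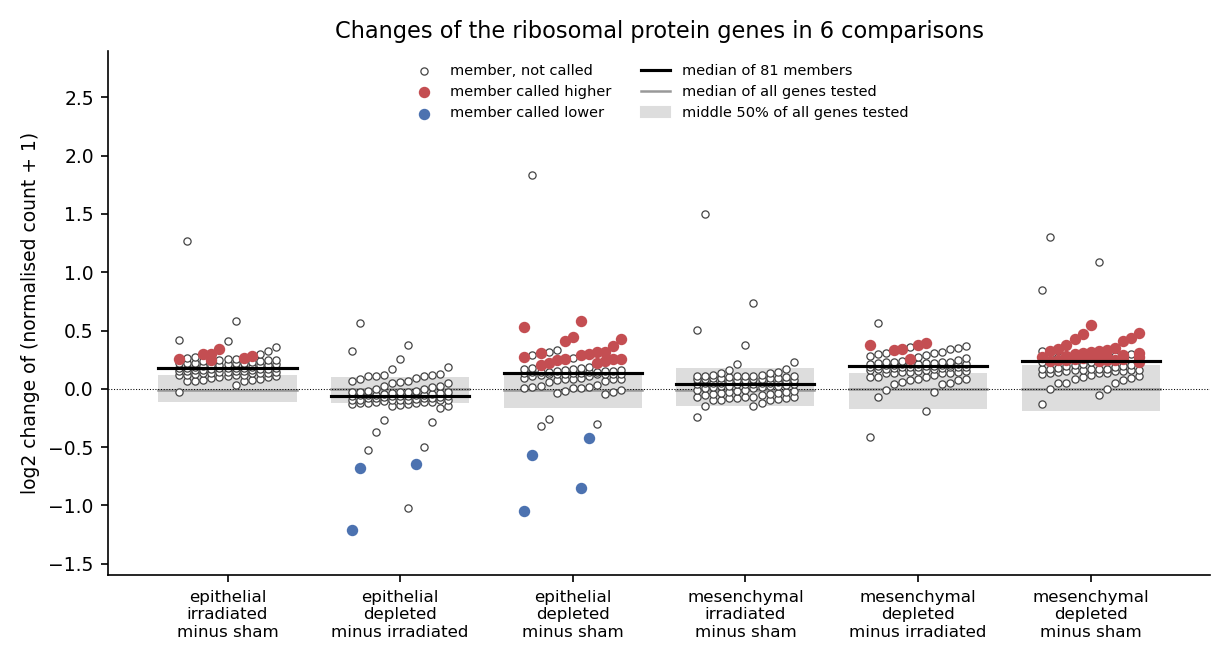
Log2 change of (normalised count + 1) for each of the 81 tested members in 6 comparisons; filled points passed an adjusted p under 0.05, black bars are the member medians and grey boxes the middle 50% of all genes tested. The member median was 0.18 in irradiated against sham epithelium and 0.19 in depleted against irradiated mesenchyme, and among these 6 comparisons called falls appear only in the 2 that involve depleted epithelium.

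Between depleted and irradiated epithelium the median member moved little, and the 3 calls were falls. Of the members, 22 of 81 lay above 0 and the median log2 change was -0.06, against 0.00 over all genes. Of the 81 members 3 were called lower and 0 higher, against 0.271% of all genes called lower and 0.204% higher, 0.475% in all. Without overlap between the groups 5 members were lower and 4 higher, against 3.18% and 3.24% of all genes. At an unadjusted p under 0.05, 10 were lower and 4 higher, against 998 and 1068 of all genes. Rps7, a small subunit protein that can bind Mdm2, was at 344, 366, 364 and 311 in irradiated and at 175, 150, 89.2 and 209 in depleted libraries, a log2 change of -1.21 ± 0.217 (adjusted p = 0.0410). Rpl26, which lies near the exit of the peptide tunnel, was at 377, 311, 392 and 330 against 218, 219, 186 and 258, a log2 change of -0.68 (adjusted p = 0.0074). Rpl35a was at 340, 355, 438 and 397 against 232, 238, 226 and 281, a log2 change of -0.64 (adjusted p = 0.0032). None of these 3 genes overlapped between the groups. The calls of Rpl26 and Rpl35a held without each library in turn, while the call of Rps7 ended without any 1 of 10 of the 12 libraries, with an adjusted p of up to 0.127, and without depleted replicate 4 the number called lower was 6. Rps12 went the same way without overlap, from 189, 188, 202 and 164 to 96.5, 58.5, 75.6 and 157, and its log2 change of -1.02 did not pass (adjusted p = 0.106).

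No fall was called when reads on near-identical copies were added to the parent row. Copies were defined, after the data were seen, as rows that hold at least 50% of a member's coding 50-base words and are at most 3 times its coding length. This gave 157 copies of 58 members, 147 of them annotated as pseudogenes. In epithelium the copies of 14 members summed to more than the member's own level, Rps7, Rps12, Rpl26 and Rpl35a among them. Of the other 67 members 0 were called lower in any epithelial comparison. With copies added, 0 of 81 members were called in either direction between depleted and irradiated epithelium. The log2 changes became -0.07 for Rps7 (adjusted p = 0.663), -0.12 for Rpl26 (adjusted p = 0.474), -0.24 for Rpl35a (adjusted p = 0.145) and -0.09 for Rps12 (adjusted p = 0.564).

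By these sums the copies carried most of the reads of these genes, with a limit for Rpl35a given below. Rps7 shares 81.6% of its coding words with Gm6472 (chrX:152909505-152910155, minus strand, GRCm38), whose mean was 1443 in sham, 1615 in irradiated and 1711 in depleted epithelium. The Rps7 row held 15.8, 17.7 and 8.2% of the sum of the gene and its copies in the same groups. Rps12 held 9.4, 8.5 and 4.7% of its sum, beside Rps12-ps3 (chr19:59322290-59322783, plus strand) at 1832, 2015 and 1967. Rpl26 held 19.3, 19.0 and 12.8%, beside Gm15772 (chr5:3236431-3236868, plus strand) at 1370, 1497 and 1483. Rpl35a held 45.0, 46.9 and 35.5%, and 5 of its copies had identical values in every library. Each of these averaged 84.8 in epithelium, beside 318 for the Rpl35a row. Whether they hold the same reads is not known, so the sum for Rpl35a may count reads more than once. Its shares, and the loss of its call with copies added, rest on that sum. In mesenchyme the Rps7 row held 14.7, 17.6 and 14.5% of its sum. The parent rows of these 4 genes thus held a smaller share in depleted epithelium, and no sum was called. Whether this shift arose in the assignment of reads or in the cells was not tested.

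**Figure D3:**
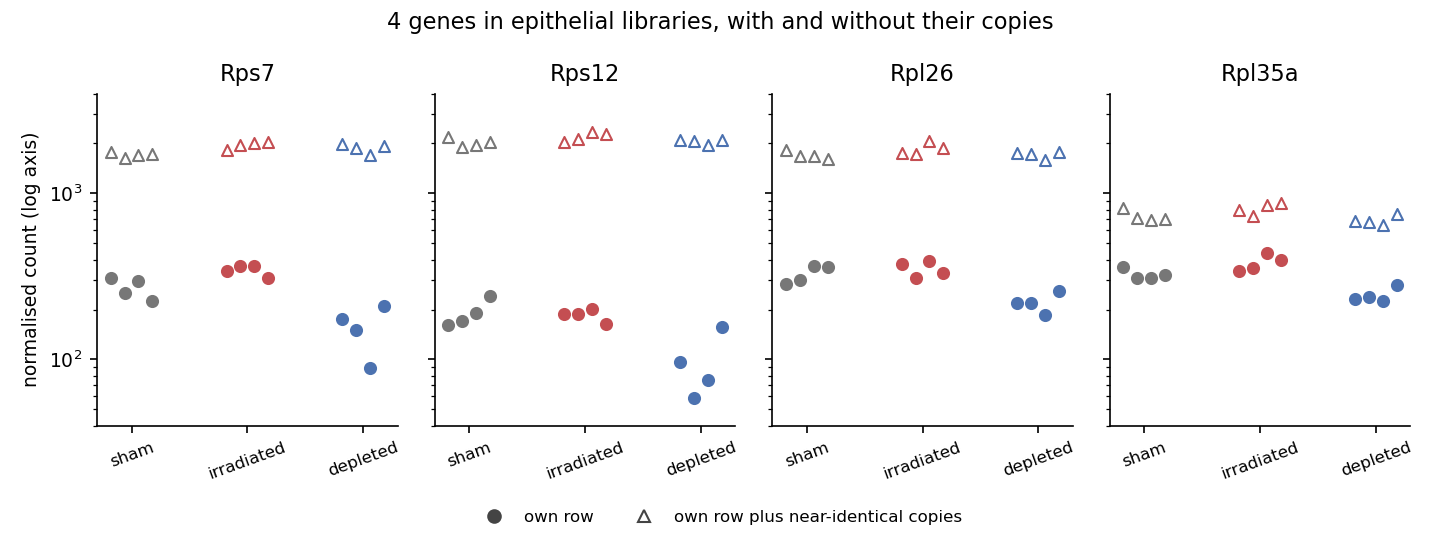
Normalised counts (log axis) of Rps7, Rps12, Rpl26 and Rpl35a in the 12 epithelial libraries, as the gene's own row (filled circles) and as the sum with its near-identical copies (open triangles). The own rows of Rps7, Rpl26 and Rpl35a are lower in all 4 depleted libraries than in any irradiated library, while the sums of Rps7, Rps12 and Rpl26 overlap between groups.

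The genes of the 5S particle, Rpl5 and Rpl11, showed the same dependence on copies. Their proteins bind 5S RNA and, when ribosome assembly is disturbed, can bind Mdm2 and so stabilise p53. The Rpl11 row was at 1126, 1239, 1596 and 1346 in irradiated and at 890, 822, 810 and 1182 in depleted epithelium, a log2 change of -0.52 (adjusted p = 0.0843) that became -0.09 with copies added (adjusted p = 0.652). Its copy Gm10288 (chr3:146838811-146839347, minus strand) went from 398 to 696. Rpl5 went the other way, from a mean of 242 to 315 with no overlap, a log2 change of 0.38 (adjusted p = 0.144), or -0.07 with copies (adjusted p = 0.660). Its copy Gm15500 (chr7:114705217-114706235, minus strand) holds 100% of its coding words and stood at 3511 and 3250. The row of Rpl5 is thus a small share of the reads that its sequence could have produced.

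Depleted epithelium also held more members above sham than below it. This comparison shares its sham libraries with the irradiated one and its depleted libraries with the depletion one, so the results are not independent. Of 81 members 20 were called higher and 4 lower, against 6.52% and 4.76% of all genes tested, 11.3% in all, and 15 were higher and 4 lower without overlap, against 8.76% and 7.89%, with a median log2 change of 0.14 (-0.03 when each library was centred on the members). The largest called rises were those of Rpl3, which lines the approach to the peptidyl transferase centre (0.58, adjusted p = 0.0203), Rpl27 (0.53, adjusted p = 0.0471), Rps16 (0.44, adjusted p = 0.0007) and Rpl12 (0.43, adjusted p = 0.0039). The 4 falls were Rps12 (-1.05, adjusted p = 0.0178), Rps7 (-0.85, adjusted p = 0.0280), Rpl26 (-0.57, adjusted p = 0.0027) and Rpl35a (-0.42, adjusted p = 0.0067). With copies added 16 were called higher and 0 lower, 15 of the 16 being among the 20, and the changes of Rpl3, Rpl27, Rps16 and Rpl12 became 0.25, 0.14, 0.29 and 0.21, with Rpl27 no longer called (adjusted p = 0.250). Rplp0 has no copy by this definition, and its depleted libraries at 2335, 2240, 2324 and 2278 all lay above the sham ones, a log2 change of 0.36 (adjusted p = 0.0012). With the leukocyte covariate 1 member was called, higher, but the covariate itself averaged 5.12 in sham and 6.20 in depleted libraries and cannot be separated from treatment. With single libraries left out, the 24 calls became 10 (depleted replicate 1), 11 (sham replicate 3), 13 (sham replicate 2) and 14 (sham replicate 4 or depleted replicate 2).

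In mesenchyme no member was called after irradiation alone. The median log2 change of the 81 members was 0.04 (0.00 when each library was centred on the members), with 54 above 0, and 0 were called by limma, against 2.64% of all genes called higher and 1.15% lower, 3.8% in all. At an unadjusted p under 0.05, 2 members were higher and 0 lower, against 1908 and 1583 of 16624 genes, and edgeR called 0 and DESeq2 1. Without overlap 1 member was higher and 1 lower, against 6.26% and 5.55% of all genes. Rpl6l was the higher one, at 13.2, 16.5, 2.02 and 16.6 in sham and 27.8, 37.6, 30.5 and 23.2 in irradiated libraries, a log2 change of 1.5 (adjusted p = 0.0846), with one sham library under the level of 3 reads. Rps23, which sits at the decoding centre, was the lower one, with -0.15 (adjusted p = 0.254).

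In depleted mesenchyme most members stood above the irradiated level. Of the members, 76 of 81 members lay above 0, with a median log2 change of 0.19 against 0.00 over all genes. At an unadjusted p under 0.05, 48 were higher and 0 lower, against 1672 and 1311 of all genes. After adjustment 6 were called higher and 0 lower, against 2.02% of all genes called higher and 0.674% lower, 2.69% in all. For 37 members all 4 depleted libraries lay above all 4 irradiated ones, against 6.09% of all genes, and for 0 below, against 3.93%. The median member stood at 0.29, 0.15, 0.28 and 0.21 (log2) above the sham mean in the depleted libraries, and at 0.11, 0.03, 0.05 and -0.04 in the irradiated ones. Leukocyte markers, which were higher in irradiated than in sham mesenchyme, had a median change of -0.31 with 0 of 8 called in this comparison, and 2 of 6 neutrophil markers were called lower.

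Rplp0 had the smallest adjusted p in this comparison and was the only one of the 6 called genes whose call held without each library in turn. It was at 1308, 1295, 1177 and 1161 in irradiated and 1639, 1490, 1674 and 1606 in depleted libraries, a log2 change of 0.38 ± 0.0677 (adjusted p = 0.0067). Every depleted library was above every irradiated and sham library. Rpsa, which also encodes a laminin receptor, was at 2333, 2156, 2095 and 2158 against 3017, 2540, 2886 and 2604, a log2 change of 0.34 (adjusted p = 0.0243). Rps26, which touches the messenger at the exit of its channel, was at 842, 769, 801 and 714 against 1072, 934, 1125 and 988, a log2 change of 0.40 ± 0.0906 (adjusted p = 0.0287). Neither gene overlapped between the groups. Rpl6 (0.26, adjusted p = 0.0475), Rpl15 (0.34, adjusted p = 0.0478) and Rpl35 (0.38, adjusted p = 0.0494), 3 large subunit genes, passed narrowly, and the groups overlapped for Rpl15. Rplp1 (0.31) and Rpl32 (0.30) just missed, each with an adjusted p that rounds to 0.05, as did Rplp2, the partner of Rplp1 in the stalk (0.23, adjusted p = 0.0599).

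The number called in this comparison moved with single libraries. It was 1 without irradiated replicate 3, irradiated replicate 4 or depleted replicate 1, 2 without irradiated replicate 2, and 3 without sham replicate 1 or depleted replicate 4. With copies added 7 members were called, and 3 were shared, namely Rplp0, Rpsa and Rps26. The others were Rpl12, Rpl32, Rps12 and Rps2, and Rps2, a small subunit protein whose own row was at 143 and 141, had a log2 change of 0.43 (adjusted p = 0.0025) on sums of 2546 and 3435.

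**Figure D4:**
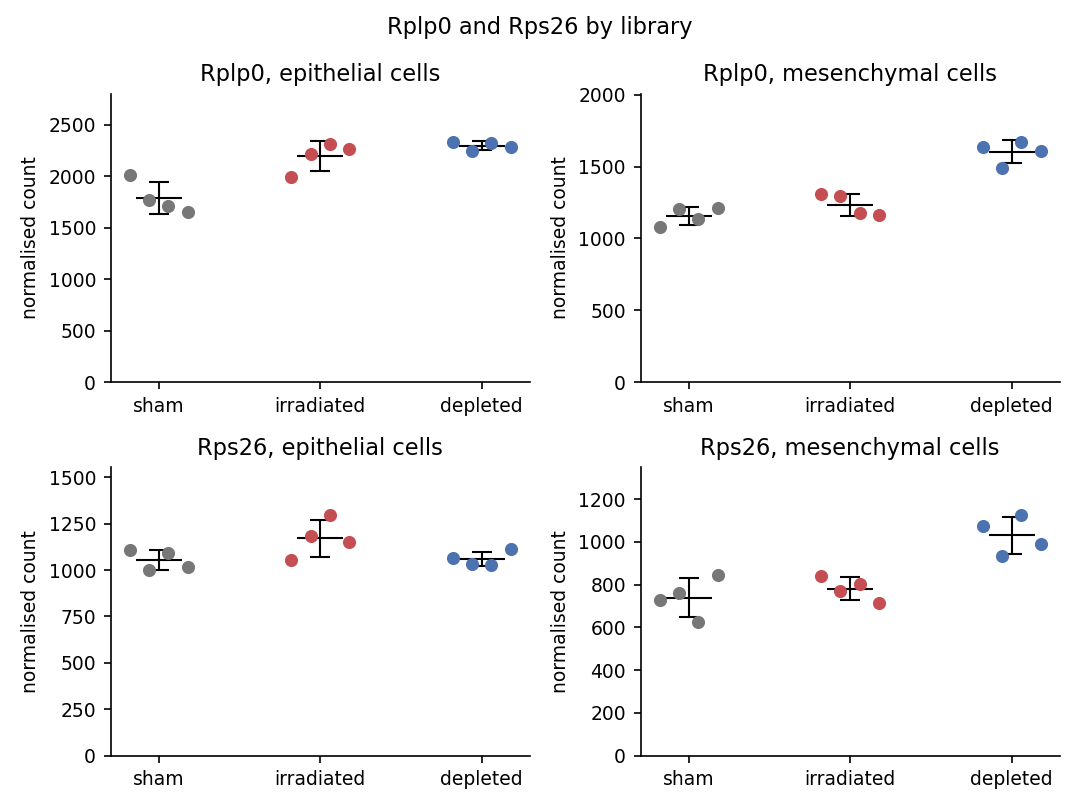
Normalised counts of Rplp0 and Rps26 by library in both fractions, with the mean and SD of 4 libraries. In mesenchyme all 4 depleted libraries of both genes lie above the other 8, and in epithelium Rps26 is at 1055 to 1296 in irradiated and 1027 to 1113 in depleted libraries.

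Against sham, 33 of 81 members were called higher in depleted mesenchyme and 0 lower, against 8.51% of all genes called higher and 6.7% lower, 15.2% in all. This comparison shares its depleted libraries with the preceding one. The median log2 change was 0.24, 78 members lay above 0, and 28 did not overlap, all of them higher, against 10.3% of all genes higher and 9.07% lower without overlap. The largest called changes were those of Rpl29 (0.55, adjusted p = 0.0286), Rps26 (0.48, adjusted p = 0.0022), Rplp0 (0.47, adjusted p = 0.0003) and Rpl36al (0.44, adjusted p = 0.0070). All 3 stalk genes were called, with 0.29 for Rplp1 (adjusted p = 0.0213) and 0.34 for Rplp2 (adjusted p = 0.0018), whose depleted libraries at 787, 765, 768 and 764 stood above sham at 611, 614, 580 and 637. Rps6 rose as well, from 1750 ± 151 to 2184 ± 80.1 (SD, n = 4; limma adjusted p = 0.0122). With copies added 49 members were called higher, including all 33, and Rpl29 had a change of 0.33. The count was 12 without sham replicate 3, 13 without depleted replicate 1 and 16 without sham replicate 1.

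Depleted against sham, 10 members were called higher in both fractions, among them Rplp0, Rpsa, Rpl6, Rpl15, Rpl36al, Rps6 and Rps19. They were 10 of the 20 epithelial calls and 10 of the 33 mesenchymal ones, or 30.3% of the latter. As 33 of all 81 members were called in mesenchyme, unrelated lists would also share members. Whether 10 is more than such lists would share was not tested. Of the paralog pairs, Rpl36al was called in both fractions. The row of Rpl36a was not called in irradiated epithelium or depleted mesenchyme, with 0.06 in each comparison (adjusted p = 0.847 and 0.871). That row held 63.6% of the sum of Rpl36a and its copies in sham and 54.2% in depleted mesenchyme. With copies added Rpl36a was called higher in depleted against sham mesenchyme, so the contrast with Rpl36al there depends on copies. In epithelium the Rpl36a row held 60.7% of that sum in sham and 70.8% in depleted libraries. Its change in depleted against sham epithelium is not given here, so no contrast with Rpl36al is drawn for that comparison. The parents of the other paralogs had log2 changes in irradiated against sham epithelium of 0.33 for Rpl3 (adjusted p = 0.300), 0.30 for Rpl10 (adjusted p = 0.206), 0.18 for Rpl39 (adjusted p = 0.233) and 0.15 for Rps4x (adjusted p = 0.236). None of these rows was called there, while Rpl10 was called higher with copies added. Rps4l, annotated as a pseudogene, was at 23.6 in sham epithelium and 89.9 in irradiated mesenchyme, and its changes of 0.27 and 0.15 did not pass (adjusted p = 0.649 and 0.758).

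When the difference between the fractions in the response to depletion was itself tested, 4 members passed with the libraries taken as independent and 0 with same-numbered epithelial and mesenchymal libraries of a treatment kept as a block. In 1 fit of all 24 libraries without the block, with 15092 genes tested in both tables, the epithelial minus the mesenchymal response to depletion had a median of -0.25 over the members and lay below 0 for 74 of 81. At an unadjusted p under 0.05, 50 members were lower, against 1011 of all genes, and 4 passed adjustment, all lower, against 0.497% of all genes called lower and 0.596% in either direction. Rps26 changed by -0.14 in epithelium and 0.40 in mesenchyme, a difference of -0.54 ± 0.112 (adjusted p = 0.0239). Rplp1 changed by -0.09 and 0.31 (difference -0.40, adjusted p = 0.0384), Rpl32 by -0.13 and 0.30 (difference -0.43, adjusted p = 0.0475), and Rpl11 by -0.52 and 0.22 (difference -0.74, adjusted p = 0.0475). None of these was called within epithelium alone. With copies added Rpl11 had a difference of -0.25 (adjusted p = 0.333) and left the list, and Rps2 entered it (difference -0.42, adjusted p = 0.0066). The number that passed was 2 or fewer without any 1 of 18 of the 24 libraries, and 0 without epithelial irradiated replicate 3, mesenchymal irradiated replicate 4 or mesenchymal depleted replicate 1. For the response to irradiation the same test called 0 members, with 17 higher at an unadjusted p under 0.05 (963 of all genes), against 0.629% of all genes called, so no member was shown to respond differently to irradiation in the 2 fractions.

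**Figure D5:**
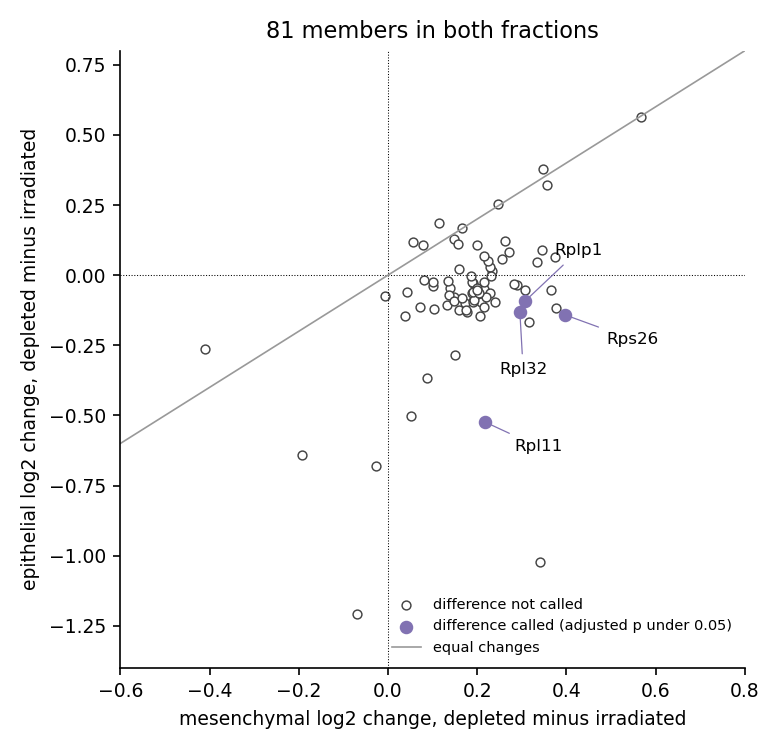
Log2 change of the 81 members between depleted and irradiated mice in mesenchyme (horizontal) and epithelium (vertical); filled points are the 4 members whose difference passed an adjusted p under 0.05 without a replicate block (0 with it), and the line marks equal changes. Of the 81 members 54 lie below 0 in epithelium and above 0 in mesenchyme.

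Genes that work with the ribosomal proteins were described by list, against the shares of all genes given above. The 7 ribosomal proteins outside the symbol rule had medians of 0.21 in irradiated against sham epithelium and 0.24 in depleted against irradiated mesenchyme, and 4 of them were called higher in depleted against sham mesenchyme. Rps27l, a known p53 target, was called higher in both fractions after irradiation, from 212 to 374 in epithelium (log2 change 0.81, adjusted p = 3.2e-05) and from 144 to 204 in mesenchyme (0.50, adjusted p = 0.0057). Rack1, a scaffold on the small subunit, had 0.21 in irradiated epithelium (adjusted p = 0.0613), and Fau, which joins a ubiquitin-like protein to one of the small subunit, had 0.21 (adjusted p = 0.200).

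For ribosomal RNA synthesis and subunit assembly the lists were RNA polymerase I genes and assembly factors. Of 15 RNA polymerase I genes 0 were called in irradiated against sham epithelium or depleted against irradiated mesenchyme, with medians of 0.01 and 0.10. Of 66 assembly factors 0 were called higher and 1 lower in the first comparison, with a median of 0.02. The one was Heatr1, a factor of small subunit processing, with -0.45 (adjusted p = 0.0024). In the second comparison 2 were higher and 0 lower, with a median of 0.15, among them Imp3 with 0.56 (adjusted p = 0.0056). Of 17 translation factors 0 were called in either comparison, with medians of 0.10 and 0.16. Against sham 7 of them were called higher and 0 lower in depleted epithelium, where 6.52% and 4.76% of all genes were. In depleted mesenchyme 5 were higher and 1 lower, against 8.51% and 6.7% of all genes, including Pabpc1, the poly(A)-binding protein (0.43, adjusted p = 0.0021).

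Of 78 genes for mitochondrial ribosomal proteins, which translate the mitochondrial genome, 0 were called in irradiated against sham epithelium or in depleted against irradiated mesenchyme, with medians of 0.00 and 0.11, and in depleted against sham mesenchyme the median was 0.01 with 0 called. Of 23 genes of mTOR and Myc control tested in epithelium, 1 was called higher and 0 lower after irradiation, with a median of -0.01. It was Sesn2, a stress-induced inhibitor of mTORC1, which rose from 278 to 624 (log2 change 1.14, adjusted p = 3.6e-05). Of 24 tested in mesenchyme, 3 were higher and 0 lower in irradiated against sham libraries, with a median of 0.01. In depleted against irradiated mesenchyme 2 were higher and 0 lower, with a median of 0.11. In depleted against sham mesenchyme 5 were higher and 1 lower, the lower one being Rheb (-0.34, limma adjusted p = 0.0344). Ddit4, another inhibitor of mTORC1, rose in mesenchyme from 35.2 in sham to 102 in irradiated (1.51, adjusted p = 0.0003) and 190 in depleted libraries (0.86 against irradiated, adjusted p = 0.0255). These lists were chosen with earlier results of the data known, and their counts are descriptions.

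Small nucleolar RNA (snoRNA) genes lie between the annotated ends of 29 of the 81 members, on the same strand. The medians of these 29 and of the other 52 members were 0.18 and 0.18 in irradiated against sham epithelium. In depleted against irradiated mesenchyme they were 0.19 and 0.20. The 7 snoRNA host transcripts that encode no ribosomal protein had medians of 0.15 and 0.13, with 0 called. Against sham mesenchyme their medians were -0.17 in irradiated and -0.06 in depleted libraries, where the members had 0.04 and 0.24. In depleted epithelium they were -0.09 against irradiated and 0.03 against sham, where the members had -0.06 and 0.14. Of rows annotated as ribosomal protein pseudogenes with -ps symbols, 39 were tested in epithelium. They had a median of 0.12 in irradiated against sham epithelium with 0 called, and 1 was called higher in depleted against sham epithelium, Rps19-ps6 (0.98, adjusted p = 0.0137). Of 37 tested in mesenchyme 2 were called higher in irradiated against sham, 3 in depleted against irradiated and 10 in depleted against sham libraries, the last with a median of 0.30.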

How the data were processed

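RNA from sorted lung cells of 24 mouse-and-fraction samples was measured by sequencing. The deposited tables, 1 for each fraction, hold normalised gene counts, a signal that the authors made by dividing read counts by a factor for each library. The submitters' processing notes name cutadapt 1.5, STAR 2.2.2a, SAMtools 1.8, RSEM 1.3.0, DESeq2 and the build GRCm38. Low values were whole multiples of one step in each library, so whole reads could be recovered for 100% of values within a tolerance of 0.001. How reads that fit several rows were shared is not given in the sources used here. Of 48795 identifiers 48349 had a symbol.

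The normalised counts were tested with limma 3.58.1 (R 4.3.3, trend and robust) on log2(normalised count + 1), 3 groups in 1 fit for each table, for genes at 10 or more in at least 4 libraries, with Benjamini-Hochberg adjustment over all genes tested. The difference between fractions was fitted on all 24 libraries. The recovered reads were tested with edgeR 4.0.16 and DESeq2 1.42.0 as alternatives. Other pseudocounts, filters, scalings, covariates, a replicate block, library weights and each library left out were also tried. The scripts were tested on simulated data. Genes were named by rule: all called members where up to 8 were called, otherwise the 4 largest rises and falls, the extremes by level, the stalk and 5S genes, Rps6, the paralogs, and the leading called genes of each other list. Genes beyond it were chosen after their values were seen. The members and lists were chosen with earlier results of these data known. The 4 samples of a group are separate mice, same-numbered samples are not stated to share a mouse across fractions, and intervals on counts cover counting error only. Single results for a few genes are not reported here.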

Additional observations from a re-analysis of the deposited data

Results flagged for a closer look

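Groups of 4 libraries were looked at for the named members and for the members' share of reads. In 19 of 228 groups 1 library stood far from the other 3, by a gap past Dixon's critical share of the group's range. Chance alone flags about 5% of independent groups, but the members of a library moved together. Of 81 members 71 lay above the sham mean in epithelial sham replicate 1 and 79 in mesenchymal sham replicate 4. The number flagged therefore cannot be set against that rate. Epithelial sham replicate 1 was the high library for Rpl24 (1218), Rpl36a (489), Rpl39 (728) and Rps6 (3110), and epithelial irradiated replicate 1 was the low one for Rpl36a (401) and Rpl5 (202). Epithelial depleted replicate 1 was high for Rpl3 (1919). Mesenchymal sham replicate 4 was high for Rps15 (2029), Rps23 (1098), Rps4x (3010) and Rpsa (2431), and mesenchymal sham replicate 2 was low for Rpl36a (285). Mesenchymal irradiated replicate 4 was low for Rpl19 (1590) and Rps23 (810), and mesenchymal irradiated replicate 1 was high for Rplp1 (1715). Mesenchymal depleted replicate 2 was low for Rpl15 (1347), Rps16 (1243) and Rps6 (2065), and mesenchymal depleted replicate 1 was low for Rpl27 (46.1).

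Without a replicate block, the log2 response to depletion was lower in epithelium than mesenchyme for Rpl11 (-0.74), Rps26 (-0.54), Rpl32 (-0.43) and Rplp1 (-0.40). With the block, 0 members passed. With copies added and no block, the difference for Rpl11 was -0.25 (limma adjusted p = 0.333). With each of the 24 libraries left out in turn, the call ended in 19 fits for Rpl11, 19 for Rpl32, 16 for Rplp1 and 3 for Rps26.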

How the results depend on the processing

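With each library left out in turn, the number of members called ranged from 0 to 26 (7 in all libraries) for irradiated against sham epithelium, 2 to 6 (3) for depleted against irradiated epithelium, 10 to 26 (24) for depleted against sham epithelium, 1 to 9 (6) for depleted against irradiated mesenchyme, 12 to 40 (33) for depleted against sham mesenchyme and 0 to 4 (4) for the difference between fractions in the response to depletion. It stayed at 0 for irradiated against sham mesenchyme and for the difference in the response to irradiation. The median log2 change of the members kept its sign without each library, from 0.14 to 0.24 for irradiated against sham epithelium and from 0.17 to 0.21 for depleted against irradiated mesenchyme.

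For irradiated against sham epithelium the count was 15 with DESeq2, 23 with library weights, 13 with the length and GC trend removed, 4 with only those 2 groups in the fit, and 0 with the leukocyte covariate. For depleted against irradiated epithelium DESeq2 called 6, and 0 were called with copies summed. For depleted against sham epithelium the leukocyte covariate left 1. For irradiated against sham mesenchyme 1 was called with a pseudocount of 8 and 1 with DESeq2. For depleted against irradiated mesenchyme the count was 10 with a mean of at least 50, 17 with DESeq2, 10 with library weights, and 3 when scaled to total reads, with the leukocyte covariate or with 2 groups alone. For depleted against sham mesenchyme it was 19 with the length and GC trend removed and 21 with the leukocyte covariate. For the difference in the response to depletion it was 1 without a filter and 1 with edgeR. The cause was not tested, except for copies summed, where reads move between rows by construction. The leukocyte covariate differed between the groups in both fractions, so fits with it cannot separate leukocyte content from treatment.

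Centring each library on the members took the median of all genes to -0.20, -0.17, -0.13 and -0.18 for irradiated and depleted against sham epithelium and depleted against irradiated and sham mesenchyme. By construction it brought the member medians to -0.01, -0.03, 0.07 and 0.06 and the counts to 0, 8 (1 higher and 7 lower), 0 and 4, and to 5 lower for depleted against irradiated epithelium. Against sham epithelium 3 called falls of the depleted group changed sign: Rps12 was 0.021 with -ps rows added and 0.029 with copies summed, Rpl26 was 0.0036 and Rps7 0.12 with copies summed.

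With a replicate block, irradiated against sham epithelium had 4 calls and the difference between fractions in the response to depletion had 0, and no other count moved by over 1.5 times. Same-numbered samples within a table had correlations of -0.11 to 0.17. Between the tables they ran from -0.04 to 0.25, over 0.1 in 7 of 12 pairs, and in 9 of 12 the own number matched best, a hint from the data that same-numbered fractions share a mouse. Not every pair passed 0.1, which does not show that the mice were separate, and the labels do not state it. Counts are therefore given with and without the block. The differences printed for single members come from the fit without it. That fit takes the libraries as independent, which is not established, and its 4 calls were 0 with the block.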
